A study of Mus musculus with 19 samples.

Results

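The comparison described here asks whether an antisense oligonucleotide (ASO) against Plin5 altered the liver transcriptome differently in fasted and in re-fed mice. It is the difference of differences over 4 groups: the PLIN5 ASO effect in re-fed liver minus the PLIN5 ASO effect in fasted liver. A positive value means that PLIN5 ASO moved a gene further upward, or less far downward, in re-fed than in fasted liver. The same number is the re-feeding response under PLIN5 ASO minus the re-feeding response under control ASO. All 19 liver RNA-seq libraries of the series enter it, 19 of 19. They comprise 4 from fasted mice given control ASO (numbered 1, 3, 4 and 5), 5 from fasted mice given PLIN5 ASO, 5 from re-fed mice given control ASO and 5 from re-fed mice given PLIN5 ASO.

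An ASO is a short synthetic nucleic acid that pairs with a chosen RNA and lowers it. Every mouse was kept on a purified normal diet and got 2 injections per week over 3 weeks, so the control groups were injected as well. Every mouse was also fasted overnight, and the re-fed groups then had food for 4 h. The sources used here do not give strain, age or sex. The labels name no additional oligonucleotide against Plin5, so lower Plin5 and other properties of that oligonucleotide cannot be told apart. The labels do not say that replicates are separate animals, and p-values then measure only the spread between these libraries. The 16 hepatocyte markers examined were detected in every library, with Alb at 53340 CPM or more (CPM, counts per 1e6 counts of a library).

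Perilipin 5, the product of Plin5, coats lipid droplets in tissues that burn fat, restrains the lipase ATGL (Pnpla2) at the droplet surface and holds droplets next to mitochondria. In fasted liver, fatty acids from droplets and plasma are oxidised, ketone bodies and glucose are made and autophagy is active. Re-feeding raises insulin, which switches on fatty acid synthesis through SREBP-1c and cholesterol synthesis through SREBP-2, and switches the fasting programme off. An interaction would show as a gene whose switch between these states has another size when Plin5 is low.

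Plin5 itself was lowered to a similar extent in both states. It stood at 35.1 to 38.5 CPM in fasted control and 6.14 to 13.1 CPM in fasted PLIN5 ASO libraries, and at 27.3 to 51.8 and 3.91 to 11.8 CPM in the re-fed ones. The PLIN5 ASO effect was -2.01 (log2) in fasted and -2.28 in re-fed liver, and the interaction was -0.27 (SE 0.38, 95% confidence interval -1.07 to 0.54, adjusted p = 0.763). This and all p-values below come from the quasi-likelihood test of edgeR, unless another tool is named. Ncam2, which encodes a neural cell adhesion molecule, fell about as far in both states, by 2.19 and by 2.14 on the log2 scale, with an interaction of 0.05 (SE 0.42).

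Some libraries stood apart, and they lay unevenly in the design. Libraries held between 24.9 and 66.9 counts in units of 1e6, the most in re-fed PLIN5 ASO 5. Arntl, a core activator of the circadian clock, reached 14.6 and 15 CPM in libraries 3 and 5 of fasted PLIN5 ASO and 23.8 and 45 CPM in libraries 3 and 5 of re-fed control ASO. The other 15 libraries ranged from 0.566 to 4.87 CPM. These 4 libraries, called clock-shifted below, all belong to the 2 groups that enter the interaction with a minus sign. Fasted control ASO 3 and 4 were much closer to each other (chi-square per degree of freedom 3.21) than the next closest pair within any group (18.4), so that group may hold fewer than 4 independent samples. Values without the clock-shifted libraries are given beside many of the results below.

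Of 13293 genes tested, 3 were called in the interaction at an adjusted p below 0.05, which is 0.0226%. Dpm3, with a positive value, and Rnf144b, with a negative one, are described next. At an unadjusted p below 0.05 there were 1991 genes (15%), of which 1012 were positive (7.61%) and 979 negative (7.36%). With the clock-shifted libraries left out, 4 of 13286 genes were called, all positive, among them Klf10, Sertad3 and Gm6484. The unadjusted shares were then 5.25% positive and 4.1% negative. The precision of the comparison was limited. The median SE of a gene's interaction was 0.20 on the log2 scale, the 95% confidence interval reached 0.42 to either side at the median, and for 9293 genes (69.9%) it lay within 1 log2 unit of 0 on both sides.

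Dpm3 encodes the small subunit that anchors dolichol-phosphate mannose synthase in the endoplasmic reticulum membrane, an enzyme that supplies mannose for protein glycosylation. Fasted control ASO libraries held 30.0, 30.6, 27.8 and 31.8 CPM, and fasted PLIN5 ASO libraries 24.4, 25.5, 24.4, 25.5 and 22.8 CPM. Re-fed control ASO libraries held 23.2, 22.4, 24.5, 23.9 and 24.6 CPM, and re-fed PLIN5 ASO libraries 30.0, 33.9, 29.4, 26.7 and 26.2 CPM. The order of the ASO groups was thus inverted between the states, with no overlap in either. On the log2 scale the PLIN5 ASO effect was -0.29 in fasted liver (SE 0.07, adjusted p = 0.0544), and in re-fed liver Dpm3 rose by 0.30 (SE 0.07, adjusted p = 0.0362). Seen along the other axis, under control ASO Dpm3 fell on re-feeding by 0.34 (adjusted p = 0.00442), and under PLIN5 ASO it rose by 0.25 (adjusted p = 0.0269). The interaction was 0.60 (SE 0.10, 95% confidence interval 0.39 to 0.80, adjusted p = 0.0482). Its longest annotated transcript has 827 nt, and with each library's trend against transcript length taken out the interaction was 0.40 (adjusted p = 0.146). Without the clock-shifted libraries it was 0.59 (adjusted p = 0.185). In GRCm38 Dpm3 lies on chromosome 3 at 89259358 to 89267079, plus strand, and has 3 exons in that transcript.

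Rnf144b encodes an E3 ubiquitin ligase of the RING-between-RING kind, which has been studied as a p53 target. It was at 25.4, 25.5, 25.5 and 26.6 CPM in fasted control ASO and at 42.7, 51.9, 52.1, 51.7 and 47.9 CPM in fasted PLIN5 ASO libraries. With re-feeding it was at 39.4, 42.7, 50.1, 27.3 and 61.2 CPM under control ASO and at 37.5, 37.7, 37.9, 33.3 and 38.8 CPM under PLIN5 ASO. Re-fed control ASO libraries were thus widely spread and enclosed the whole re-fed PLIN5 ASO group, while the fasted groups were far apart. Rnf144b rose with PLIN5 ASO in fasted liver by 0.94 (SE 0.15, adjusted p = 0.00558), and in re-fed liver the difference was -0.25 (SE 0.14, adjusted p = 0.326). On re-feeding it rose by 0.78 under control ASO (adjusted p = 0.00212) and stood at -0.41 under PLIN5 ASO (adjusted p = 0.0681). The interaction was -1.19 (SE 0.20, 95% confidence interval -1.61 to -0.77, adjusted p = 0.0482), and -0.90 (adjusted p = 0.123) without the clock-shifted libraries, 2 of which hold the highest re-fed control values. The gene spans chromosome 13 at 47122656 to 47247991, plus strand, with 8 exons in its longest transcript. It is overlapped on the other strand by A930002C04Rik and Gm48581. The sources used here do not say whether counting used strand, so reads of overlapping genes on opposite strands cannot be told apart for Rnf144b.

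**Figure D1:**
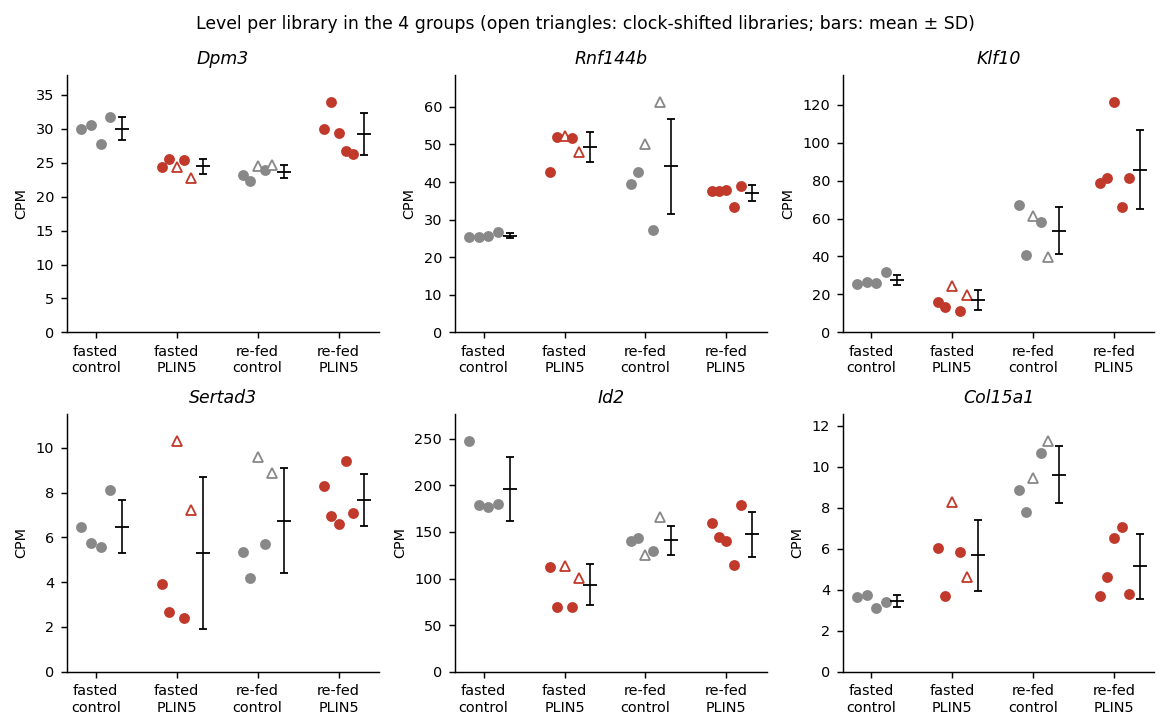
Level per library (CPM, linear axis from 0) of Dpm3 and Rnf144b, which were called in the interaction, and of Klf10, Sertad3, Id2 and Col15a1, which were not called with all libraries. Points are libraries, open triangles the 4 clock-shifted ones, and bars the mean ± SD of the 4 or 5 libraries of a group; for Dpm3 fasted PLIN5 ASO lies below fasted control ASO, while for Rnf144b it lies above.

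None of the 3 calls survived counting fasted control ASO 3 and 4 as 1 sample, where no gene was called and the smallest adjusted p was 0.117. Leaving out any single fasted control library likewise left no gene called. Over the 19 fits that each left out 1 library, Dpm3 and Rnf144b were each called in only 2. The values kept their sign over the alternative settings, between 0.40 and 0.63 for Dpm3 and between -1.32 and -0.90 for Rnf144b. Dpm3 was smallest, at 0.40 against 0.60 in the main fit, with the length trend taken out. Rnf144b was smallest in size, at -0.90 against -1.19, without the clock-shifted libraries.

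Leaving out predicted genes and levels under 2 CPM, the 7 genes next in order of p had adjusted p between 0.106 and 0.118, so were not called. The ASO effect of 4 passed the adjusted threshold in fasted liver alone (Id2, Sp5, Lama3 and Rnf169). That of 2 passed it in re-fed liver alone (Col15a1 and Zfp524), and that of Klf10 in neither. Passing in 1 state alone does not show that an effect is confined to it. Id2 encodes an inhibitor of basic helix-loop-helix transcription factors. It was at 247, 178, 177 and 180 CPM in fasted control ASO, at 112, 69.9, 113, 69.9 and 100 CPM in fasted PLIN5 ASO libraries. In re-fed liver its levels were 140, 143, 126, 130 and 166 CPM under control ASO and 160, 144, 140, 114 and 179 CPM under PLIN5 ASO. Id2 fell with PLIN5 ASO in fasted liver (-1.07, SE 0.16, adjusted p = 0.00294) and the re-fed groups overlapped, which gave an interaction of 1.14 (SE 0.22). Klf10 encodes a Krueppel-like transcription factor induced by TGF-beta. Its lowest levels, 11.4 to 24.7 CPM, were in fasted PLIN5 ASO libraries, and its highest, 65.9 to 121 CPM, were in re-fed PLIN5 ASO libraries, with 25.7 to 31.6 and 39.9 to 67.4 CPM in the fasted and re-fed control ASO groups. Klf10 rose on re-feeding by 0.96 under control ASO (SE 0.21, adjusted p = 0.00531) and by 2.33 under PLIN5 ASO (SE 0.20, adjusted p = 1.48e-06). Its interaction was 1.37 (SE 0.28, adjusted p = 0.118), and it was called without the clock-shifted libraries, at 1.64 (adjusted p = 0.0446).

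Sp5, a transcription factor gene and a target of Wnt signalling, and Zfp524, a zinc finger gene, also had positive values, 1.51 (SE 0.31) and 0.57 (SE 0.11). Sp5 fell with PLIN5 ASO in fasted liver by 1.0 (adjusted p = 0.0329), and Zfp524 rose with it in re-fed liver by 0.34 (adjusted p = 0.0409). Negative values were found for Col15a1 (-1.62, SE 0.30), which encodes a basement membrane collagen, Lama3 (-1.36, SE 0.28), a laminin chain gene, and Rnf169 (-0.58, SE 0.11), a ubiquitin ligase gene of the DNA damage response. Col15a1 held 7.78 to 11.2 CPM in re-fed control ASO and 3.72 to 7.07 CPM in re-fed PLIN5 ASO libraries, which did not overlap, and fell there by 0.91 (adjusted p = 0.0328). Sertad3, a transcription co-regulator gene, and the predicted gene Gm6484 were picked out after their values were seen, as 2 of the 4 genes called without the clock-shifted libraries. Sertad3 had an interaction of 0.47 (SE 0.46) with all libraries and 1.70 (adjusted p = 0.0446) without them. It stood at 10.3 and 7.22 CPM in libraries 3 and 5 of fasted PLIN5 ASO, and the remaining 3 libraries of that group held 2.39 to 3.93 CPM. Gm6484 had 1.82 (SE 0.71) with all libraries and 3.52 (adjusted p = 0.0446) without them.

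Over all genes the ASO effects in the 2 states, which rest on separate libraries, were only weakly correlated, while the genes called mostly shared their sign. In fasted liver 80 genes rose (0.602%) and 76 fell (0.572%) with PLIN5 ASO, and in re-fed liver 108 rose (0.812%) and 75 fell (0.564%). Called in both were 20 genes, 12.8% of the fasted and 10.9% of the re-fed list, and all 20 moved the same way. These shares are larger than the shares of all genes called in either state. Of the genes called in fasted liver, 75% had the same sign in re-fed liver. Of those called in re-fed liver 82.0% had the same sign in fasted liver. As background, 47.6% of all genes tested had opposite signs in the 2 states. Over all 13293 genes Pearson's r between the effects was 0.06, and 0.29 without the clock-shifted libraries. Genes are not independent, and libraries of 1 group share their deviations, so these are descriptions.

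Re-feeding responses had more in common between the ASOs. Under control ASO 853 genes rose (6.42%) and 906 fell (6.82%), and under PLIN5 ASO 598 rose (4.5%) and 550 fell (4.14%). The lists shared 492 genes, 27.9% of the control list and 42.7% of the PLIN5 list, and 490 of these moved the same way. Pearson's r over genes was 0.38, and 0.50 without the clock-shifted libraries. The difference in the number of genes called was not itself tested.

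**Figure D2:**
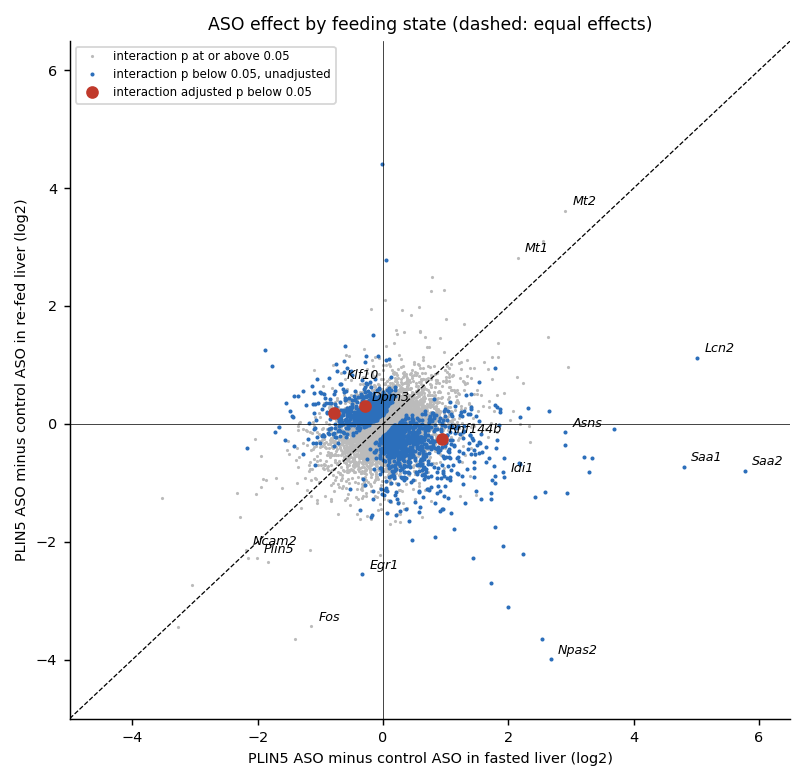
PLIN5 ASO minus control ASO (log2) in fasted liver on the x axis and in re-fed liver on the y axis, 1 point per gene tested (13293 genes, of which 2 lie outside the axes). Blue points have an unadjusted interaction p below 0.05 and red ones were called; Plin5, Ncam2, Mt1 and Mt2 lie near the dashed line of equal effects, while Saa1, Saa2 and Lcn2 lie far to the right of it.

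The metallothionein genes Mt1 and Mt2, whose products bind zinc and copper, behaved much like Plin5 in that their ASO effects had the same sign in both states. Mt2 was at 9.37 to 21.5 CPM in fasted control ASO and 67.4 to 142 CPM in fasted PLIN5 ASO libraries, and at 0.834 to 2.08 and 1.13 to 46.6 CPM in the re-fed ones. It rose with PLIN5 ASO by 2.90 in fasted liver (adjusted p = 0.0258) and by 3.62 in re-fed liver (adjusted p = 0.0126), with an interaction of 0.71 (SE 0.84). The 95% confidence interval ran from -1.05 to 2.47. Mt1 had an ASO effect of 2.15 in fasted liver (adjusted p = 0.0649) and rose by 2.82 in re-fed liver (adjusted p = 0.0169).

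Gene lists were compared by the number of members with an unadjusted interaction p below 0.05 and by the median interaction, which was -0.02 over all genes tested. The background for every such count below is 7.61% positive and 7.36% negative of all genes. Without the clock-shifted libraries it is 5.25% and 4.1%. No member of the 32 lists was called by edgeR with all libraries. DESeq2 called 93 of all 13293 genes, among them 3 cholesterol synthesis genes and 3 acute phase genes. The lysosome, circadian clock, immediate early, ribosome biogenesis and hepatocyte marker lists had 1 such gene each, too few to describe a list. The list with the largest negative share among the metabolic ones was cholesterol synthesis, where 15 of 26 members (57.7%) were negative at that threshold and 0 positive, against 7.36% and 7.61% of all genes. The median was -0.72, and 21 of 26 members lay below 0. Leaving out the clock-shifted libraries, 7 of 26 members were negative, 0 positive, and the median was -0.38, where 4.1% of all genes were negative. Leaving out each library in turn gave 11 to 18 negative members and medians of -0.85 to -0.60.

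The re-feeding response of the list was counted under each ASO. Under control ASO 22 of 26 cholesterol synthesis genes rose on re-feeding and 0 fell, with a median of 1.10, whereas under PLIN5 ASO 12 rose and 0 fell, with a median of 0.60. Over all genes the share that rose was also smaller under PLIN5 ASO, 4.5% against 6.42%. The ASO medians on the list were 0.21 in fasted and -0.31 in re-fed liver, and 0 members were called in either ASO comparison. The median level with PLIN5 ASO was thus higher in fasted and lower in re-fed liver, and both differences enter the interaction with the same sign.

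Idi1, which encodes the isomerase that makes the building block dimethylallyl pyrophosphate, was at 0.457, 0.550, 0.630 and 0.283 CPM in fasted control ASO libraries. It was at 1.40, 0.326, 4.93, 0.562 and 2.02 CPM in fasted PLIN5 ASO libraries. With re-feeding its levels were 4.77, 2.58, 4.74, 5.70 and 8.71 CPM under control ASO and 2.88, 1.74, 3.08, 3.57 and 2.85 CPM under PLIN5 ASO. Among fasted PLIN5 ASO libraries 1, 3 and 5 were high, of which 3 and 5 are clock-shifted. Idi1 rose on re-feeding under control ASO by 3.44 (SE 0.59, adjusted p = 0.00091) and stood at 0.61 under PLIN5 ASO (SE 0.48, adjusted p = 0.470). Its interaction was -2.83 (SE 0.75, adjusted p = 0.168), and -1.27 without the clock-shifted libraries.

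Lss, the gene of lanosterol synthase, showed a tighter pattern, with 11.9 to 13.8 CPM (control ASO) and 14.6 to 20.1 CPM (PLIN5 ASO) in fasted libraries, and 25.9 to 48.3 CPM (control ASO) and 22.9 to 33.1 CPM (PLIN5 ASO) in re-fed libraries. It rose on re-feeding under both ASOs, by 1.64 (SE 0.16, adjusted p = 5.89e-06) with control and by 0.71 (SE 0.14, adjusted p = 0.00477) with PLIN5 ASO. The interaction was -0.93 (SE 0.21, 95% confidence interval -1.38 to -0.49, adjusted p = 0.118), and -0.77 without the clock-shifted libraries. Cyp51, the lanosterol demethylase gene, had -1.76 (SE 0.48, adjusted p = 0.178), and -0.95 without them. Dhcr7, which encodes the last reductase of the pathway, rose on re-feeding by 1.98 under control ASO (adjusted p = 3.21e-05) and by 0.92 under PLIN5 ASO (adjusted p = 0.00758), with an interaction of -1.06 (SE 0.30). Re-fed control ASO 2 had the lowest level of its group for all 4 of these genes, for instance 25.9 CPM against 67.7 to 111 CPM for Cyp51.

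**Figure D3:**
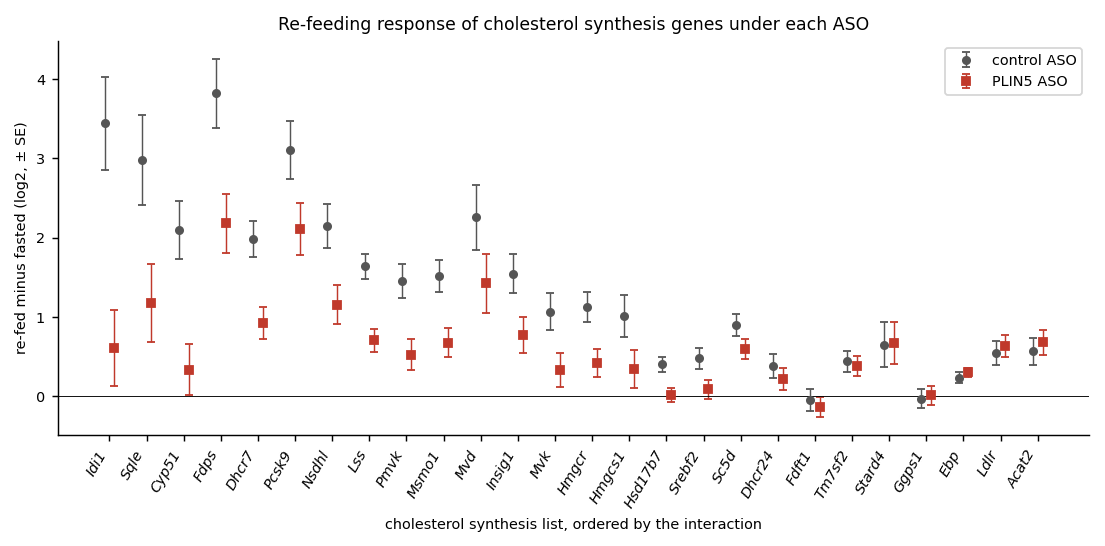
Re-fed minus fasted (log2 ± SE) for the 26 cholesterol synthesis genes under control ASO (circles) and PLIN5 ASO (squares), ordered by the interaction. The squares lie below the circles for 21 of 26 genes, with the largest gap at Idi1.

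Since most of these genes rose together on re-feeding under control ASO, their promoters were examined in RefSeq's windows on GRCm38.p6, over the 250 bases before the annotated start. Windows were found for 18 of the 26 genes by symbol. The CCAAT box (searched as CCAAT on both strands), which binds NF-Y, a known partner of SREBP factors, was in at least 1 window of 17 of the 18 genes (94.4%), against 37.5% of all 27025 genes with a window and 33.8% of all 32851 windows. The GC box (GGGCGG, both strands), bound by Sp1, was in 16 of 18 (88.9%), against 35.4% of all genes and 32.7% of windows. The E-box CACGTG, a palindrome, was in 4 of 18 (22.2%), against 6.86% of genes and 6.02% of windows, and CACCCCAC, the core of the sterol element in its strict spelling, was in 2 of 18 (11.1%), against 2.98% of genes and 2.58% of windows. None of these spellings contains another. A match is a description of the letters only. The background holds every gene with a window, whether or not it was expressed in these livers. Shares among the genes tested were not examined, so the excess cannot be assigned to this list in particular. The 3 cholesterol synthesis genes with the smallest interaction p are shown because each has a CCAAT box close to its start, in capitals as CCAAT or, on the other strand, ATTGG. Counted back from the start, the box begins at base -45 and -14 in Idi1, -29 in Cyp51 and -62 in Lss. The windows lie on chromosome 13 at 8885356 to 8885605, plus strand (Idi1), chromosome 5 at 4104698 to 4104947, minus strand (Cyp51), and chromosome 10 at 76531355 to 76531604, plus strand (Lss).
Idi1: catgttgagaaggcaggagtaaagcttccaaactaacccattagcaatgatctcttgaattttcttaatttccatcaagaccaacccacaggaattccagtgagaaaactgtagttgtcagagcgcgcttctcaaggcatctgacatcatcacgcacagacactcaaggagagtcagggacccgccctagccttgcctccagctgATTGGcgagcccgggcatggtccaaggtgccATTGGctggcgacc
Cyp51: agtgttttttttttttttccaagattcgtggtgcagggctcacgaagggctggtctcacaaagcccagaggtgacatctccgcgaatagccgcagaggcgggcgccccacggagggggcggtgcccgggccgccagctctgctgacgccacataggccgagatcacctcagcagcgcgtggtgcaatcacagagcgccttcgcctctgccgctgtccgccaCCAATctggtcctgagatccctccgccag
Lss: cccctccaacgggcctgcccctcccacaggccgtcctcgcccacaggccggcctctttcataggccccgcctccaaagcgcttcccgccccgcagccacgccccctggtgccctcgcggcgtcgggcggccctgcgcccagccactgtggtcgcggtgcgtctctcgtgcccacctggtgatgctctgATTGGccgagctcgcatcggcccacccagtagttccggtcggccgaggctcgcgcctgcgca

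Of fatty acid synthesis genes, the other lipogenic list, 3 of 26 members (11.5%) were negative and 0 positive, with a median of -0.15. Without the clock-shifted libraries 4 were negative, with a median of -0.33 and 21 of 26 below 0, close to the median of -0.38 and 22 of 26 below 0 of cholesterol synthesis. The difference between the lists was not tested. Re-feeding raised 18 of its genes under control ASO and 16 under PLIN5 ASO, with medians of 0.96 and 1.0. Fasn, the fatty acid synthase gene, rose by 3.66 (SE 0.28) and 3.56 (SE 0.25), with an interaction of -0.10 (SE 0.33, 95% confidence interval -0.79 to 0.60). Srebf1, which encodes SREBP-1, rose by 1.66 and by 2.45 (interaction 0.79, SE 0.41, adjusted p = 0.367, and 0.20 without the clock-shifted libraries). Acly, the ATP citrate lyase gene, was at 251 to 437 CPM in re-fed control ASO and 147 to 339 CPM in re-fed PLIN5 ASO libraries, with an interaction of -0.69 (SE 0.28, adjusted p = 0.276). Gpam, which encodes the first acyltransferase of triglyceride synthesis, rose on re-feeding by 0.79 under control ASO (adjusted p = 0.00267) and stood at 0.05 under PLIN5 ASO. Its interaction was -0.74 (SE 0.21, adjusted p = 0.185) and was -0.78 without the clock-shifted libraries.

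Genes of the fasting programme were divided into fat oxidation and glucose production. Of 39 fatty acid oxidation and ketogenesis genes, 2 were positive and 2 negative (5.13% each), with a median of 0.17, and re-feeding lowered 29 of them under control ASO and 24 with PLIN5 ASO, against 6.82% and 4.14% of all genes. Without the clock-shifted libraries 0 were positive and 1 negative, with a median of 0.0074. The count of positive members was 7 with the replicate number as a block, and 0 without fasted control ASO 1 to 9 without re-fed control ASO 2 when single libraries were left out. Cpt1a, which encodes the gatekeeper of mitochondrial fatty acid entry, had an interaction of 0.00 in size to 2 decimals, with a 95% confidence interval from -0.60 to 0.59, and of -0.43 without the clock-shifted libraries. Pdk4, a pyruvate dehydrogenase kinase gene raised by fasting, had -2.43 (SE 0.82, adjusted p = 0.234), but -0.64 without the clock-shifted libraries, and its highest level, 12.2 CPM, was in re-fed control ASO 5. Fgf21, a fasting hormone gene, had -0.10 (SE 0.70), and 1.06 without them. Among gluconeogenesis and fasting response genes 4 of 24 were negative (16.7%, against 7.36% of all genes) and 0 positive, with a median of -0.27. With the 15 libraries that are not clock-shifted 5 of 24 were negative (20.8%, against 4.1%), with a median of -0.25. Igfbp1, an insulin-repressed binding protein gene of that list, had -2.30 (SE 0.71, adjusted p = 0.205), and -1.31 without the clock-shifted libraries, of which re-fed control ASO 5 held its highest re-fed level, 213 CPM. It fell on re-feeding under PLIN5 ASO by 1.92 (adjusted p = 0.0202). Cebpb, which encodes a liver transcription factor, fell there by 0.92 (adjusted p = 0.00239) and had -0.83 (SE 0.25).

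Lipid droplet proteins and lipases had 5 of 25 members positive (20%) and 0 negative, against 7.61% and 7.36% of all genes, with a median of 0.27. Without the clock-shifted libraries 3 were positive (12%) and 1 negative (4%), against 5.25% and 4.1% of all genes, with a median of 0.02. Lipc, the hepatic lipase gene, fell with PLIN5 ASO in fasted liver by 0.41 (adjusted p = 0.013) and differed by -0.06 in re-fed liver. Its interaction was 0.35 (SE 0.10, adjusted p = 0.193) and 0.40 without the clock-shifted libraries. Pnpla2, the gene of the lipase that perilipin 5 restrains, fell on re-feeding by 0.83 under control ASO (adjusted p = 0.00299) and stood at -0.15 under PLIN5 ASO (adjusted p = 0.599). Its interaction was 0.68 (SE 0.23, adjusted p = 0.236), and 0.31 without the clock-shifted libraries, 2 of which held the lowest re-fed control levels, 62.0 and 58.3 CPM against 85.1 to 99.7 CPM. Bscl2, which encodes the droplet assembly protein seipin, had 0.27 (SE 0.10). Plin2, the gene of the main droplet coat protein of liver, fell on re-feeding by 0.82 and by 1.02, with an interaction of -0.20 (SE 0.26, 95% confidence interval -0.75 to 0.35).

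The series title names autophagy in fasting, a process in which cargo is enclosed and delivered to lysosomes. Among 47 autophagy genes 4 were positive (8.51%) and 2 negative (4.26%), with a median of -0.01, close to the shares over all genes. Ulk1, the gene of the initiating kinase, was at 61.1 to 68.0 CPM in fasted control, 69.1 to 72.3 in fasted PLIN5, 81.7 to 119 in re-fed control and 95.7 to 108 CPM in re-fed PLIN5 ASO libraries. It rose on re-feeding under both ASOs, by 0.59 and by 0.52, with an interaction of -0.07 (SE 0.12, 95% confidence interval -0.32 to 0.17). The intervals were also narrow for Becn1, a lipid kinase complex subunit gene (-0.27 to 0.09), for Atg7, the gene of the conjugation enzyme (-0.06 to 0.44), for Map1lc3b, the gene of the membrane marker LC3B (-0.09 to 0.46), and for Sqstm1, the gene of the cargo receptor p62 (-0.38 to 0.31). Vamp8, which encodes a SNARE protein of autophagosome fusion, had the smallest p of the list, at 0.35 (SE 0.10, adjusted p = 0.197), and fell on re-feeding under control ASO by 0.37 (adjusted p = 0.00344), against -0.02 under PLIN5 ASO (adjusted p = 0.887). Ulk2, a paralogue of Ulk1, had -0.32 (SE 0.12, adjusted p = 0.267).

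Lysosome genes had 8 of 45 members positive (17.8%) and 2 negative (4.44%), against 7.61% and 7.36% of all genes, with a median of 0.11. Without the clock-shifted libraries 3 were positive (6.67%) and 1 negative (2.22%), close to the 5.25% and 4.1% of all genes. Leaving out single libraries gave 2 to 10 positive members, the fewest without fasted control ASO 3. Atp6v1f, a proton pump subunit gene, had 0.36 (SE 0.13), and 0.16 with the length trend taken out. Lipa, the gene of lysosomal acid lipase, was at 193 to 258 CPM in re-fed control ASO and 158 to 201 CPM in re-fed PLIN5 ASO libraries, with an interaction of -0.53 (SE 0.14, adjusted p = 0.168), and it fell on re-feeding under PLIN5 ASO by 0.47 (adjusted p = 0.00416). Tfeb, which encodes a transcription factor for lysosome genes, had 0.49 (SE 0.22, adjusted p = 0.310), and 0.18 without the clock-shifted libraries, and Lamp1, a lysosome membrane protein gene, had 0.10 (SE 0.09). Among sirtuins and regulators of mitochondrial biogenesis 3 of 22 were positive (13.6%) and 0 negative, against 7.61% and 7.36% of all genes. Sirt1, a deacetylase gene that responds to fasting, had -0.09 (SE 0.13, 95% confidence interval -0.37 to 0.19), Sirt2, a cytosolic deacetylase gene, had 0.30 (SE 0.09, adjusted p = 0.206) and Ppargc1a, the gene of the coactivator PGC-1 alpha, had -0.32 (SE 0.29).

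Acute phase genes, which liver expresses at higher levels in inflammation, had 13 of 31 members negative (41.9%) and 2 positive (6.45%), with a median of -0.40. Without the clock-shifted libraries 5 were negative and 2 positive, with a median of -0.09. In fasted liver 10 of the 31 rose with PLIN5 ASO and 1 fell, against 0.602% and 0.572% of all genes. In re-fed liver 2 rose and 0 fell, against 0.812% and 0.564%. On re-feeding 13 fell and 3 rose under PLIN5 ASO, and 2 fell and 0 rose under control ASO. Of all genes 4.14% fell under PLIN5 ASO and 6.82% under control ASO. Saa2, a serum amyloid A gene, was at 29.9, 22.8, 21.6 and 61.9 CPM in fasted control ASO and at 3297, 22.3, 4152, 58.1 and 1757 CPM in fasted PLIN5 ASO libraries. In re-fed liver it was at 34.8, 32.9, 178, 27.0 and 138 CPM with control ASO and at 50.1, 39.9, 28.5, 35.0 and 82.2 CPM with PLIN5 ASO.

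For Saa2, fasted PLIN5 ASO libraries 1, 3 and 5 were thus far above every other library. Libraries 2 and 4 of that group lay within the range of fasted control ASO. Of the re-fed libraries, control ASO 3 and 5 were the highest. The interaction of Saa2 was -6.57 (SE 1.43, adjusted p = 0.118), and -4.47 (adjusted p = 0.368) without the clock-shifted libraries. Saa1 had -5.54 (SE 1.37, adjusted p = 0.154), and -3.36 without them. Lcn2, the gene of the siderophore-binding protein lipocalin 2, had -3.90 (SE 1.0, adjusted p = 0.168), with 222 to 540 CPM in fasted PLIN5 ASO 1, 3 and 5 and 10.1 and 25.5 CPM in 2 and 4. The spread within the fasted PLIN5 ASO group was thus as wide as the difference between the groups.

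**Figure D4:**
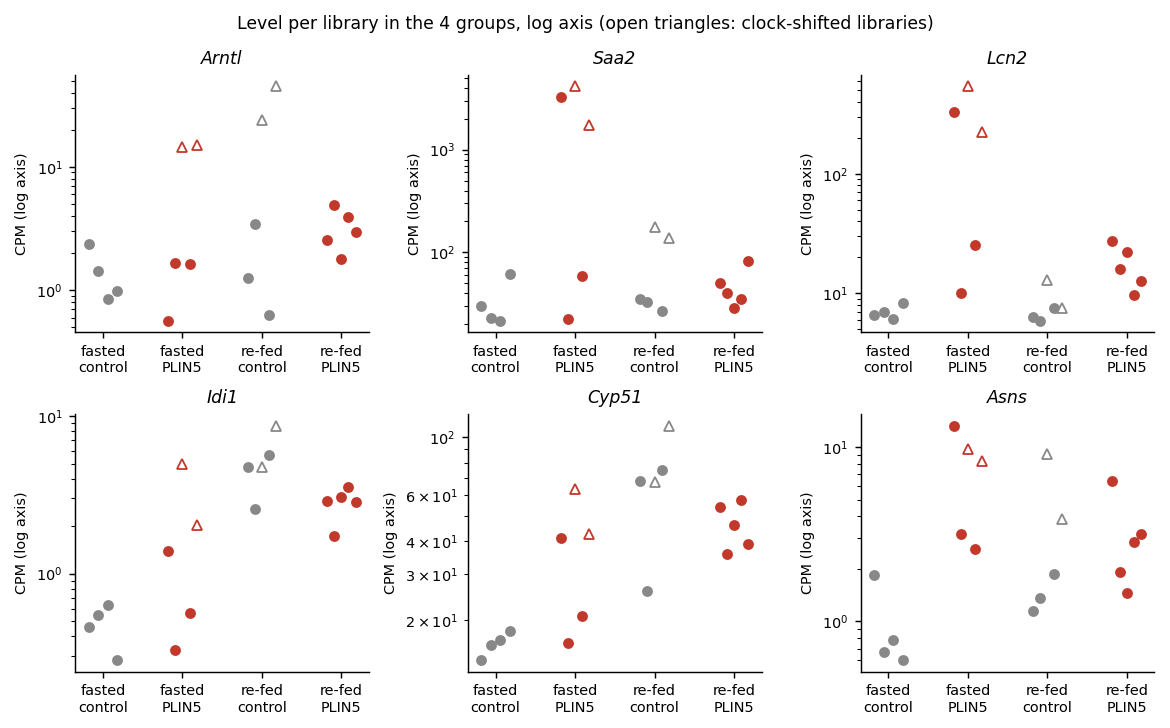
Level per library (CPM, log axis) of Arntl, Saa2, Lcn2, Idi1, Cyp51 and Asns in the 4 groups, with open triangles for the 4 clock-shifted libraries. For Saa2 and Lcn2 fasted PLIN5 ASO splits into 3 high and 2 lower libraries, and for Lcn2 the lower ones still lie above fasted control ASO. For Arntl the 4 clock-shifted libraries lie above all others.

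Inflammatory signalling genes had 4 of 30 members negative (13.3%) and 1 positive, with a median of -0.31, which was 0.04 without the clock-shifted libraries, where 2 were negative and 4 positive. Vcam1, a leukocyte adhesion molecule gene, rose with PLIN5 ASO in fasted liver by 1.19 (adjusted p = 0.0334) and differed by -0.04 in re-fed liver, with an interaction of -1.23 (SE 0.36, adjusted p = 0.194). Il6ra, the interleukin 6 receptor gene, rose in fasted liver by 0.97 (adjusted p = 0.0345) and had -0.74 (SE 0.30, adjusted p = 0.276). Nfkb1, an NF-kB subunit gene, had -0.20 (SE 0.13), and the sparsely expressed cytokine genes Il1b and Ccl2 had -0.83 (SE 0.90) and -0.44 (SE 1.05), and 1.44 and 0.77 without the clock-shifted libraries, too imprecise to place. Tnf and Il6 were below the filter on low counts. Of 38 interferon response genes none was positive or negative at the unadjusted threshold, and their median was -0.03.

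Marker genes of other liver cells were counted in the same way. Kupffer cell and macrophage markers had 6 of 17 members negative (35.3%) and 0 positive, with a median of -0.78 and all 17 below 0. Their summed level was 230 to 246 CPM in fasted control, 246 to 615 CPM in fasted PLIN5, 241 to 330 CPM in re-fed control and 195 to 364 CPM in re-fed PLIN5 ASO libraries. C1qb, a complement gene of macrophages, was at 15.8, 18.9, 18 and 18.8 CPM in fasted control and at 24.6, 22.9, 58.5, 34.0 and 43.0 CPM in fasted PLIN5 ASO libraries, and rose there by 1.03 (adjusted p = 0.0345), with an interaction of -0.82 (SE 0.32), and -0.37 without the clock-shifted libraries. Fasted PLIN5 ASO 3 and 5 held the most of it, and library 1, which was high for Saa2 and Lcn2, held about as much as library 2. Adgre1, the gene of the macrophage antigen F4/80, had -0.97 (SE 0.40), and -0.37 without them. Without the clock-shifted libraries 0 of 17 markers were negative at the threshold and the median was -0.36, and leaving out fasted PLIN5 ASO 3 alone left 1 negative marker, while leaving out fasted PLIN5 ASO 1 gave 11. No marker of this list was at 0 in any library. In bulk tissue, more cells of a type and more RNA per cell cannot be told apart, and the part of these cells in the acute phase and inflammatory values was not tested.

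Stellate cell and fibroblast markers had 5 of 14 members negative (35.7%) and 0 positive, with a median of -0.56, and 1 of 15 negative without the clock-shifted libraries and 2 negative without fasted control ASO 5. Lum and Col3a1, matrix genes, rose with PLIN5 ASO in fasted liver by 1.10 (adjusted p = 0.0275) and 1.15 (adjusted p = 0.0333), with interactions of -0.96 (SE 0.33) and -0.84 (SE 0.35). The latter was -0.44 without the clock-shifted libraries. Both were highest in fasted PLIN5 ASO 3, 4 and 5, a different set of libraries from that of Saa2. The summed level of the list was 147 to 187 CPM in fasted control, 187 to 288 CPM in fasted PLIN5, 192 to 221 CPM in re-fed control and 166 to 269 CPM in re-fed PLIN5 ASO libraries. Among 17 liver endothelial markers none passed the unadjusted threshold, and the median was -0.03. Neutrophil and monocyte markers summed to at most 13.6 CPM in any library and lymphocyte markers to at most 13.9 CPM.

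Genes of the unfolded protein and integrated stress response, which cells switch on when protein folding or amino acids fall short, had 6 of 30 members negative (20%) and 1 positive, with a median of -0.49. The direction depended on the clock-shifted libraries: without them 0 were negative and 3 positive, and the median was 0.12. Leaving out re-fed control ASO 5 alone left 1 negative member, and leaving out re-fed control ASO 2 gave 13. Hsp90b1, an endoplasmic reticulum chaperone gene, had -0.76 (SE 0.32) with all libraries and 0.00 without them. The clock-shifted libraries held 1364 and 1253 CPM (fasted PLIN5 ASO) and 1479 and 1779 CPM (re-fed control ASO) of it, and the other 15 libraries 718 to 1111 CPM. Asns, the asparagine synthetase gene, rose with PLIN5 ASO in fasted liver by 2.91 (adjusted p = 0.0345), where it was at 13.3, 3.19, 9.74, 2.60 and 8.34 CPM against 1.86, 0.672, 0.780 and 0.602 CPM. Its interaction was -3.05 (SE 0.86, adjusted p = 0.178), and -1.58 without the clock-shifted libraries. Ddit4, a stress-induced inhibitor of mTORC1, had -2.51 (SE 0.83), and -1.46 without them.

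Among clock genes, which time daily rhythms, of 20 members 5 were negative (25%) and 3 positive (15%). Arntl had -4.44 (SE 1.42, adjusted p = 0.212) with all libraries and 1.0 without the clock-shifted ones. Those libraries are the ones with the most Arntl, in groups with a minus sign, so leaving them out had to raise its value. The change is therefore no separate result. Npas2, a partner gene of the same complex, had -6.67 (SE 1.92), and did not pass the low-count filter without them. Bhlhe41, which encodes a clock repressor, had 2.76 (SE 0.87), and 1.70 without them, and Dbp, a clock output gene, had 1.49 (SE 1.14), and 0.17 without them. Immediate early genes, which answer to growth and stress signals within minutes, had 3 of 22 members positive and 2 negative, and 6 positive and 0 negative without the clock-shifted libraries, with medians of 0.10 and 0.31. Egr1 had -2.21 (SE 0.85), Fos -2.28 (SE 1.15) and Nr4a1 -0.50 (SE 0.74). Re-fed control ASO 5 held 136 CPM of Fos, 109 CPM of Egr1 and 79.1 CPM of Nr4a1, against at most 21.4, 33.0 and 37.9 CPM elsewhere. With the clock-shifted libraries left out Fos was at 0.18, Egr1 at -0.73 and Nr4a1 at 1.15. Dusp6, a feedback phosphatase gene of ERK signalling, fell with PLIN5 ASO in fasted liver by 1.20 (adjusted p = 0.0163) and differed by -0.25 in re-fed liver, with an interaction of 0.95 (SE 0.30, adjusted p = 0.213) and 0.71 without them. Gadd45a, a growth arrest gene, rose on re-feeding under PLIN5 ASO by 1.93 (adjusted p = 0.00828), against 0.32 under control ASO, with an interaction of 1.61 (SE 0.60), and 0.75 without them.

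**Figure D5:**
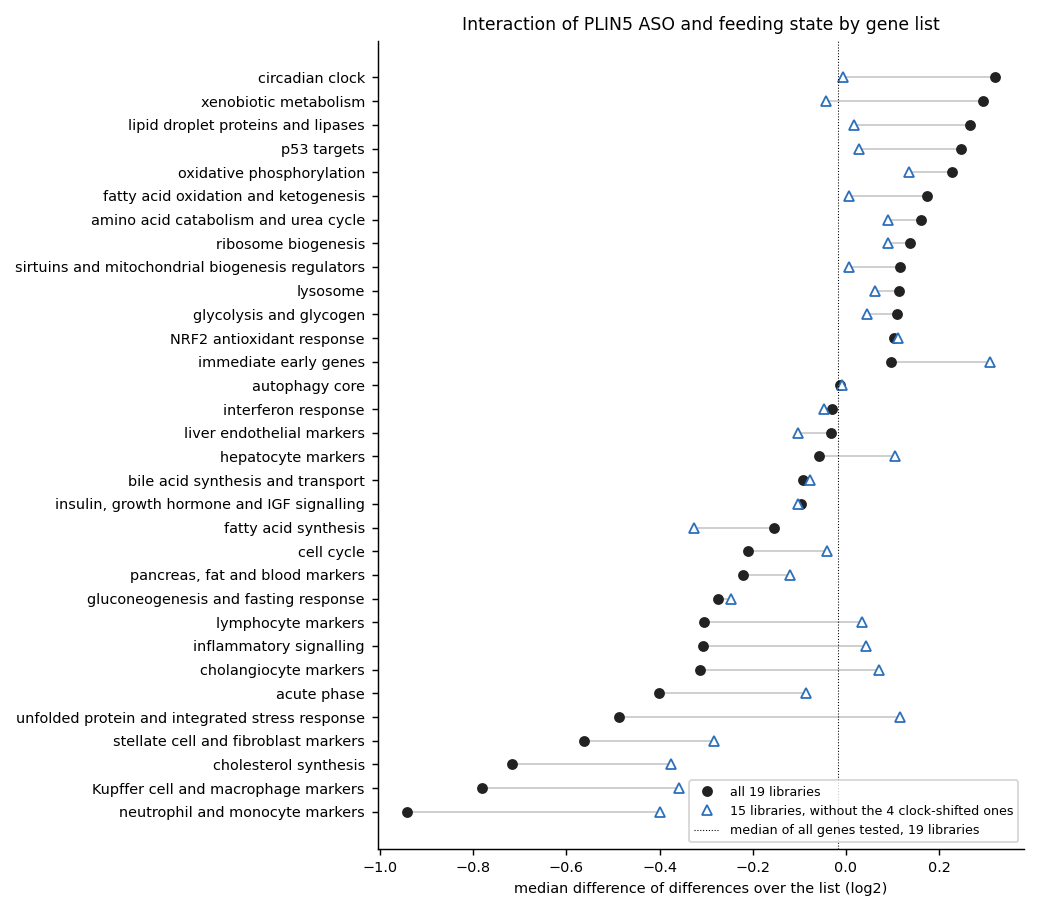
Median interaction (log2) of each of the 32 gene lists with all 19 libraries (filled circles) and with 15 libraries, without the 4 clock-shifted ones (open triangles), joined by a line per list, with the median of all genes tested as a dotted line. Cholesterol synthesis and macrophage markers stay below 0 in both, while the unfolded protein and integrated stress response moves from -0.49 to 0.12.

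Oxidative phosphorylation genes had 14 of 31 members positive (45.2%) and 0 negative, with a median of 0.23 and all 31 above 0. Cox4i1, a cytochrome oxidase subunit gene, was at 397 to 435 CPM in fasted control, 354 to 382 in fasted PLIN5, 303 to 356 in re-fed control and 352 to 511 CPM in re-fed PLIN5 ASO libraries, with an interaction of 0.40 (SE 0.13, adjusted p = 0.209). Atp5d, an ATP synthase subunit gene, had 0.38 (SE 0.12). Over the 15 libraries that are not clock-shifted 2 of 31 were positive, with a median of 0.14, and with the length trend taken out 4 were, with a median of 0.13, where Cox4i1 had 0.19 and Atp5d 0.27. Ribosome biogenesis genes had 6 of 29 members positive (20.7%) and 0 negative, with a median of 0.14, and 4 positive without the clock-shifted libraries. Rrp9, a small nucleolar ribonucleoprotein gene, rose on re-feeding under PLIN5 ASO by 0.51 (adjusted p = 0.0096) and stood at -0.19 under control ASO, with an interaction of 0.70 (SE 0.17, adjusted p = 0.150). Npm3, a nucleolar chaperone gene, had 0.68, with 5.50 to 8.65 CPM in re-fed control and 8.89 to 14.1 CPM in re-fed PLIN5 ASO libraries, which did not overlap.

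The interaction ran with transcript length across the whole transcriptome. Over 12805 genes with a known length, Spearman's rho between the length of the longest transcript and the interaction was -0.28, and -0.24 without the clock-shifted libraries, as a description over genes that share the same libraries. The median interaction was 0.20 for 743 genes under 1000 nt and -0.16 for 2601 genes over 5000 nt. Positive genes at the unadjusted threshold had a median length of 1819 nt and negative ones 4426 nt, against 3055 nt for all tested. The trend lay in the re-fed libraries: rho with the ASO effect was -0.34 in re-fed and 0.04 in fasted liver. The level of long relative to short transcripts averaged -0.05 and -0.03 (log2) in fasted control and PLIN5 ASO libraries, 0.19 in re-fed control ASO (0.08 to 0.29) and -0.11 in re-fed PLIN5 ASO (-0.40 to 0.02). With the trend taken out no gene was called, the smallest adjusted p being 0.0686, and 1539 genes (11.6%) were at an unadjusted p below 0.05. Cholesterol synthesis still had 14 of 26 members negative. The part of RNA quality in this trend was not tested.

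The lists not yet described follow, against 7.61% of all genes positive and 7.36% negative. Xenobiotic metabolism genes had 5 of 26 positive (19.2%) and 1 negative (3.85%), with a median of 0.29, which was -0.04 without the clock-shifted libraries. Bile acid synthesis and transport had 2 of 22 negative (9.09%), near the share over all genes, and 0 positive. In that list Cyp8b1, which encodes the enzyme that makes cholic acid, had -1.20 (SE 0.45), and -0.32 without the clock-shifted libraries. Amino acid catabolism and the urea cycle had 5 of 36 positive (13.9%) and 1 negative (2.78%). Glycolysis and glycogen had 3 of 28 positive (10.7%) and 0 negative. NRF2 antioxidant genes had 3 of 20 positive (15%) and 2 negative (10%). Of p53 targets 2 of 19 were positive and 2 negative (10.5% each). Insulin, growth hormone and IGF signalling genes had 2 of 26 positive (7.69%) and 4 negative (15.4%). Cell cycle genes had 2 of 24 positive (8.33%) and 4 negative (16.7%). Hepatocyte markers had 5 of 16 positive (31.3%) and 2 negative (12.5%), and 1 and 0 without the clock-shifted libraries.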

How the data were processed

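Liver total RNA was sequenced. Per the submitters' processing notes, the tools were Subread, edgeR, Cuffdiff 2.2.1, HISAT2 2.0.2 and FastQC and the builds GRCm38 and mm10, without roles. The authors deposited whole-number counts per gene symbol and FPKM per gene symbol, with annotation and strand setting not stated in these sources. Counts were fitted with edgeR 4.0.16 in R 4.3.3 (TMM, filterByExpr with a minimum count of 10, a mean per group, quasi-likelihood F test, two-sided, Benjamini-Hochberg over all 13293 genes tested). The procedure was also run on simulated counts, drawn independently from fitted means and dispersions. Those counts held no clock-shifted or near-duplicate libraries, so the run does not cover their influence. Lengths and positions are from GENCODE M21, matched by symbol for 96.3% of genes.

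Named genes were those called with at least 2 CPM in a group, filled to 10 by p, up to 3 per list by p, and a fixed set; a few of them are not reported here. Members and lists were chosen with earlier results of these data known. Alternatives were RLE size factors, other filters (none, or 1 CPM in 4 libraries), DESeq2 1.42.0, the replicate number as a block, leaving out libraries, merging fasted control ASO 3 and 4, thinning re-fed PLIN5 ASO 5 to 28.96 in units of 1e6, length offsets in 25 bins, and limma 3.58.1 on log2(FPKM + 1) or log2(FPKM + 0.1) from the deposited FPKM (genes averaging 0.5 FPKM or more, or unfiltered).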

Additional observations from a re-analysis of the deposited data

Results flagged for a closer look

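The test of the difference itself called Dpm3 (0.60 on the log2 scale) and Rnf144b (-1.19) as differing in PLIN5 ASO effect between feeding states. Both had an adjusted p of 0.0482 in edgeR's quasi-likelihood test, just under the threshold. Each was called in only 2 of the 19 fits that left out 1 library.

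In 30 of 300 sets of values (10%), a library lay far from the others of its group. Each set held the libraries of 1 group for 1 gene or for the total count. Chance gives about 1 in 20 for independent sets, but these sets share libraries and many genes were picked from these data. The 10% therefore does not show an excess. Fasted control ASO 3 and 4 were the closest pair, and every value flagged in that group lay in library 1 or 5. In fasted control ASO 1 the flagged values were Id2 (247 CPM), Sqstm1 (369 CPM), Mt1 (69.4 CPM), Fos (17.9 CPM) and Asns (1.86 CPM) on the high side and Bscl2 (49.3 CPM) on the low side. In fasted control ASO 5 they were Rnf144b (26.6 CPM) and Klf10 (31.6 CPM), both high, and Cyp8b1 (127 CPM), Ppargc1a (5.13 CPM) and the total count (28.2 in units of 1e6), all low. In fasted PLIN5 ASO 4 it was Ulk1 (69.1 CPM, low).

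Re-fed control ASO 5 stood apart for Pdk4 (12.2 CPM), Igfbp1 (213 CPM), Il1b (5.96 CPM), Fos (136 CPM), Egr1 (109 CPM) and Nr4a1 (79.1 CPM), all high, and re-fed control ASO 3 for Lcn2 (13 CPM, high). Re-fed control ASO 4 was low for Becn1 (35.6 CPM).

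Re-fed PLIN5 ASO 2 was high for Tfeb (14.7 CPM) and Cox4i1 (511 CPM) and low for Gpam (53.4 CPM). Re-fed PLIN5 ASO 4 was low for Rnf144b (33.3 CPM) and Npm3 (8.89 CPM) and high for Hsp90b1 (1111 CPM). Further high values were Cpt1a in re-fed PLIN5 ASO 1 (541 CPM), Klf10 in re-fed PLIN5 ASO 3 (121 CPM), and Saa1 (277 CPM) and the total count (66.9 in units of 1e6) in re-fed PLIN5 ASO 5.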

How the results depend on the processing

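The interaction called 3 genes with RLE size factors, the stricter filter and the thinned library, and 4 without the clock-shifted libraries. It called 0 genes with no filter on low counts, with fasted control ASO 3 and 4 as 1 sample, with the length trend taken out and with limma on FPKM with a filter at either pseudocount. DESeq2 called 93 genes (43 positive, 50 negative), among them all 3 of edgeR's. Leaving out single libraries gave 0 to 3 genes.

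PLIN5 ASO in fasted liver gave 156 genes, 432 in DESeq2, 36 with fasted control ASO 3 and 4 as 1 sample and 22 to 188 without single libraries. PLIN5 ASO in re-fed liver gave 183, 588 in DESeq2, 45 without the clock-shifted libraries, 44 with the length trend taken out and 45 to 341 without single libraries. Re-feeding under control ASO gave 1759, 1167 without the clock-shifted libraries, 1139 with fasted control ASO 3 and 4 as 1 sample and 1112 to 2014 without single libraries. Re-feeding under PLIN5 ASO gave 1148, and 741 to 1232 without single libraries. The cause of these shifts was not tested.

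With the replicate number as a block, 1 gene was called in the interaction, 253 in the fasted and 290 in the re-fed ASO comparison. The r of deviations over 27 same-numbered pairs ran from -0.29 to 0.46 with a median of 0.084, against -0.035 for other pairs. It was over 0.1 in 12 of the 27, among them all 3 pairs of number 2, and above 0 in all 6 of number 5. Numbers 1, 3 and 4 each had pairs with positive and with negative r. Differently numbered pairs also passed 0.1. The highest r of all, 0.52, joined fasted PLIN5 ASO 3 and re-fed control ASO 5, which differ in number. Of 19 libraries, 4 correlated best with a library of their own number. Each library had several same-numbered partners, so some such matches arise by chance. The highest same-numbered r, 0.46, joined fasted PLIN5 ASO 5 and re-fed control ASO 5, which are both clock-shifted. These values do not decide whether the numbers pair the samples, and the main fit used no block.

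Sign changes of single genes were counted where the value with all libraries exceeded its SE. All were without the clock-shifted libraries: Arntl at 1.0, Fos at 0.18 and Hsp90b1 at 0.0018. For Fos and Hsp90b1 the value thus became small and did not clearly turn. For Arntl, leaving out the libraries with the most of it had to raise the value. Depth limits the sparse genes, such as Ccl2, which held at most 0.72 CPM in any library.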
